A study of Mus musculus with 6 samples.

Results

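The metalloproteinases and their inhibitors were followed in RNA from the dental epithelium of mandibular molars of mice at postnatal day 2.5 (PN2.5). The members are every gene of the deposited table named *Mmp* with a number (without *Mmp20*), *Adamts* with a number or *Timp* with a number, together with *Reck*, which gave 46 of the 55487 genes listed: 22 MMP genes, 19 ADAMTS genes, 4 TIMP genes and *Reck*. The rule that sorts genes into the set reads gene names only. The study compared 3 libraries from Wnt10aflox/flox mice (control) with 3 libraries from K14-Cre;Wnt10aflox/flox mice (cKO), so that both groups carried the floxed allele and only the cKO carried Cre. Cre was driven by the keratin 14 promoter, which is active in epithelial cells, and the labels list no group with Cre alone. Each library was a pool of epithelium, from 4 molars by the design text of the series and from a larger number by the methods of the paper.

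Matrix metalloproteinases (MMPs) are zinc proteases made as inactive precursors, and between them they cut collagens, gelatin, laminins, proteoglycans and many cell surface proteins. ADAMTS proteases are secreted relatives with thrombospondin repeats that trim procollagens, cut large proteoglycans and act on microfibrils. MMPs are held in check by the TIMPs, small secreted inhibitors that bind the active site, and by RECK, an inhibitor anchored in the membrane. TIMP3 also inhibits ADAMTS proteases. In the tooth, enzymes of both families are known for remodelling the basement membrane and the matrix between the epithelium and the mesenchyme as the crown and the root take shape.

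The values are TPM, a transcript abundance in which a gene's reads are divided by its length and scaled to a fixed sum, so that levels can be compared between genes of a library. TPM keep no sequencing depth, so the depth behind each value is unknown, and precision is set by having 3 libraries in a group. *Wnt10a*, the targeted gene, was 56.0, 51.2 and 57.9 TPM in the control and 22.7, 21.8 and 32.2 TPM in the cKO, so that no cKO library reached a control level. The libraries carried transcripts of tissues other than the epithelium. The summed level of 8 dental epithelial markers was 204400 to 245800 TPM in control libraries and 100700 to 214500 TPM in cKO libraries, and that of 12 mesenchymal markers was 3269 to 5948 TPM and 4085 to 4464 TPM, whereas 5 skeletal muscle markers summed to at most 1.75 TPM. The enamel matrix gene *Amelx* took 8.65% of the sum in cKO replicate 2 and 16.5% to 20.6% in the other libraries.

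Of the 46 genes, 23 averaged 1 TPM or more across the 6 libraries and were tested: 10 MMP genes, 9 ADAMTS genes, *Timp1*, *Timp2*, *Timp3* and *Reck*. The other 23 were too low for the test. Among them, *Adamts19*, *Adamts5* and *Adamts12* reached 1.77, 1.47 and 1.71 TPM in their highest library, *Adamts4* reached 1.05 TPM, and no other untested gene exceeded 0.71 TPM, the highest value of *Mmp7*. *Mmp1b* was listed at 0 in every library, and *Timp4*, the fourth TIMP, did not exceed 0.01 TPM. The comparisons therefore concern the 23 tested genes.

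*Mmp14* had the highest level of all 46 genes. It encodes MT1-MMP, a protease fixed in the cell membrane that cuts fibrillar collagen at the cell surface and activates pro-MMP2, and lies on the forward strand of chromosome 14 of GRCm38 from 54431612 to 54445364. It stood at 212, 172 and 157 TPM in the control and 115, 154 and 152 TPM in the cKO, and it made up 59.8% to 69.2% of the summed level of the 22 MMP genes in a control library and 45.7% to 65.5% in a cKO library. *Timp2*, which encodes the inhibitor that docks pro-MMP2 onto MT1-MMP, was the next highest at 64.6, 45.3 and 50.6 TPM in the control and 48.4, 59.0 and 60.0 TPM in the cKO. *Mmp2*, which encodes gelatinase A, the substrate of that activation, had 39.0, 15.7 and 13.8 TPM in the control and 21.1, 40.4 and 17.8 TPM in the cKO. All 3 partners of the activation complex were thus among the 6 highest members, and the groups overlapped for *Timp2* and *Mmp2*. The log2 difference of *Mmp2* between the groups, in log2(TPM + 1), was 0.27 (SE 0.45, limma, unadjusted p = 0.571). Below *Mmp14*, the members from rank 3 to rank 8 by mean (*Timp1*, *Adamts17*, *Adamts9*, *Mmp2*, *Mmp23* and *Timp3*) had means of 21.7 to 32.1 TPM, and their ranges over the libraries overlapped.

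**Figure D1:**
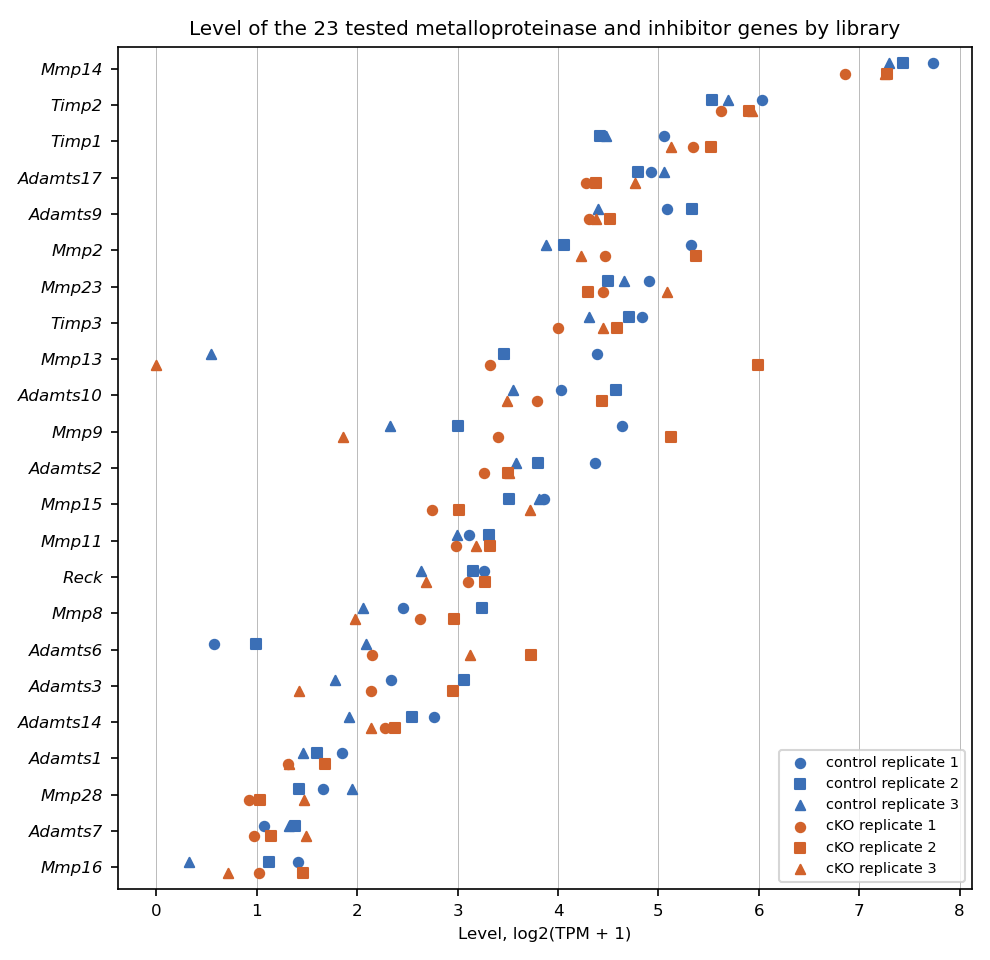
Level of each of the 23 tested genes, as log2(TPM + 1), in the 3 control libraries (blue) and the 3 cKO libraries (orange), with the marker showing the replicate and the genes ordered by mean. *Mmp14* lies above the other genes in every library, while *Mmp13* runs from 0 to 62.6 TPM within the cKO group.

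The comparison of cKO with control asks which of these genes moved with the deletion of *Wnt10a* in the epithelium. Over all genes tested, 0 of the 23 had an adjusted p below 0.05 in the limma fit (adjusted p = 1.00 for each), where 0.0146% of the 13719 genes tested were called. The targeted gene *Wnt10a* did not pass this threshold either. Its log2 difference was -1.10 (SE 0.19, limma, unadjusted p = 0.00065, adjusted p = 0.747). A member that misses the threshold is therefore not shown to be unchanged. By the criteria in the study's methods, an unadjusted p below 0.05 and a mean that differs from the control mean by more than 20%, 3 of the 23 were called with limma: *Adamts6* and *Timp1* were higher in the cKO and *Adamts17* was lower. Among all genes tested, 4.02% met these criteria, 1.55% as higher and 2.47% as lower. An unadjusted p below 0.05 alone gave the same 3 genes. The lower calls moved with the scaling. Quantile normalization gave 2 higher and 2 lower members, with *Adamts9* and *Mmp14* in place of *Adamts17*, where 4.73% of all genes tested were called. Median-ratio scaling gave 2 higher and 1 lower, *Adamts9*, where 4.48% of all genes were called. When the TPM were rescaled without the enamel matrix genes *Amelx* and *Ambn*, 26 members were tested. Of these, 2 were called as higher and 4 as lower, with *Adamts2*, *Adamts9* and *Mmp14* added, where 6.35% of all genes were called. *Adamts6* and *Timp1* met the criteria under each of these scalings.

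*Adamts6* had the largest difference of the tested members. It encodes a secreted protease known to act on microfibril components and on cell surface proteoglycans, and lies on the forward strand of chromosome 13 of GRCm38 from 104287835 to 104496695, with a longest transcript of 25 exons and 7690 bases. It stood at 0.49, 0.99 and 3.26 TPM in the control and 3.43, 12.3 and 7.69 TPM in the cKO. Every cKO library was above every control library, although control replicate 3 and cKO replicate 1 lay close together, and the spread within each group was wide (p = 0.1 in an exact two-sided permutation test, below which 6 libraries cannot go). The control mean was 1.58 ± 1.48 TPM (SD, n = 3), and the cKO mean was 4.95 times as high at 7.81 ± 4.45 TPM (SD, n = 3). On the scale of log2(TPM + 1) the difference, called log2 fold change from here, was 1.78 (SE 0.52, limma, unadjusted p = 0.0106). Each of the 15 alternative fits that tested it kept the unadjusted limma p below 0.05, with differences from 1.41 to 2.44. With transcript length and GC content removed from each library (the length correction), the difference was 2.00.

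*Timp1* was the inhibitor that met the criteria. It encodes a secreted inhibitor of most soluble MMPs, and lies on the forward strand of the X chromosome of GRCm38 from 20870166 to 20874735, inside *Syn1*, a neuronal gene on the opposite strand with which it shares no exonic base. It stood at 32.3, 20.5 and 21.3 TPM in the control and 39.7, 45.0 and 34.0 TPM in the cKO. The groups did not overlap, with control replicate 1 just below cKO replicate 3 (exact two-sided permutation test, p = 0.1). The control mean was 24.7 ± 6.62 TPM (SD, n = 3) and the cKO mean 39.6 ± 5.51 TPM (SD, n = 3). The log2 fold change was 0.68 (SE 0.22, limma, unadjusted p = 0.0179), and 0.59 with the length correction. The call rested on most of the libraries: without control replicate 2, control replicate 3, cKO replicate 1 or cKO replicate 2, the unadjusted p from limma was 0.0538, 0.0517, 0.05003 and 0.0625, with differences of 0.56 to 0.67. Of the 5 odontoblast and bone markers, 1, *Bglap*, met the criteria as higher, where 1.55% of all genes tested did. *Ifitm5* ranged over 13.8 to 19.8 TPM in control and 20.5 to 38.1 TPM in cKO libraries, and *Bglap*, which has a close paralog that could share its reads, over 392 to 618 TPM and 686 to 1089 TPM. Neither gene's groups overlapped, which held in this direction for 3.51% of all genes tested. The groups overlapped for *Dspp*, the main odontoblast gene, and for *Dmp1* and *Phex*, with log2 fold changes of -0.27, 0.09 and -0.01. The 5 markers summed to 835 to 2117 TPM in control libraries and 1327 to 1878 TPM in cKO libraries, none of them was at 0, and their part in the level of *Timp1* was not tested.

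The other inhibitors did not meet the criteria. *Timp3*, whose protein binds to the matrix and also inhibits ADAM and ADAMTS proteases, was 27.6, 25.2 and 18.8 TPM in the control and 15.0, 23.1 and 20.8 TPM in the cKO. Its log2 fold change was -0.27 (SE 0.23, 95% confidence interval -0.82 to 0.27, limma, unadjusted p = 0.272). Since 1733 bases of its exons are shared with exons of *Syn3* on the opposite strand, and the strand setting of the counting is not given in the sources used here, reads in the shared part cannot be told apart. *Timp2*, with means of 53.5 TPM in control and 55.8 TPM in cKO libraries, had a log2 fold change of 0.07 (SE 0.19, 95% confidence interval -0.37 to 0.51, limma, unadjusted p = 0.724). *Reck* was 8.57, 7.88 and 5.23 TPM in the control and 7.57, 8.70 and 5.42 TPM in the cKO, with a log2 fold change of 0.00 (95% confidence interval -0.61 to 0.61). These intervals leave room for changes of moderate size in either direction. *Timp1* made up 22.5% to 25.96% of the summed TIMP level in the control and 29.6% to 38.5% in the cKO, and *Timp2* 49.8% to 55.8% and 46.4% to 52.3%. The summed TIMP level per summed MMP level was 0.351, 0.351 and 0.400 in the control and 0.523, 0.377 and 0.495 in the cKO, so that the groups overlapped.

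**Figure D2:**
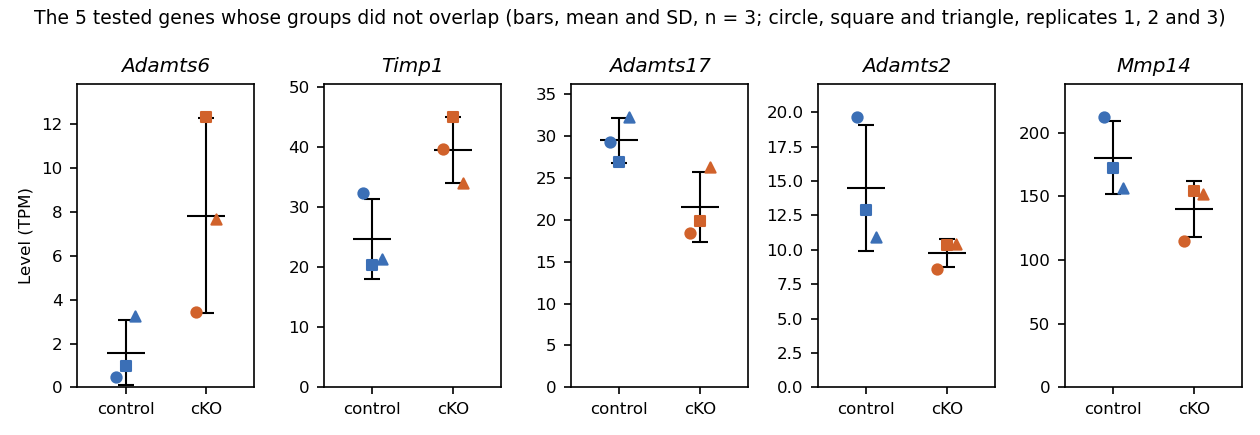
Level in TPM of the 5 tested genes whose groups did not overlap, with 1 point per library, the mean as a horizontal bar and the SD as error bars (n = 3). *Adamts6* and *Timp1* lie higher and *Adamts17*, *Adamts2* and *Mmp14* lie lower in every cKO library, and the nearest libraries of the groups are close for all 5 genes.

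The remaining members whose groups did not overlap were all lower in the cKO. With *Adamts6* and *Timp1* this gave 5 of the 23, 2 higher and 3 lower, where 9.64% of all genes tested had groups apart, 3.51% higher and 6.13% lower. *Adamts17* was 29.3, 26.9 and 32.3 TPM in the control and 18.4, 19.9 and 26.3 TPM in the cKO, with a log2 fold change of -0.45 (SE 0.19, limma, unadjusted p = 0.0489). The groups nearly touched, with control replicate 2 at 26.9 TPM just above cKO replicate 3 at 26.3 TPM. It encodes a protease known for its part in fibrillin microfibrils and short stature, and lies on chromosome 7 of GRCm38 from 66839735 to 67153171. With the length correction the value was -0.15 (limma, unadjusted p = 0.456). The unadjusted limma p stayed below 0.05 in 5 of 16 alternative fits. Among the fits that leave out 1 library, it was 0.0185 without cKO replicate 3 and 0.0529 to 0.147 without any other library. *Adamts2*, the main procollagen I N-propeptidase, was 19.7, 12.9 and 10.95 TPM in the control and 8.60, 10.3 and 10.4 TPM in the cKO, with a log2 fold change of -0.49 (SE 0.24, limma, unadjusted p = 0.0844). The value was -0.66 without control replicate 3 (limma, unadjusted p = 0.0342), -0.26 without control replicate 1 (limma, unadjusted p = 0.305) and -0.16 with the length correction (limma, unadjusted p = 0.422). The mean of *Mmp14* was 180 ± 28.7 TPM (SD, n = 3) in control and 140 ± 21.98 TPM (SD, n = 3) in cKO libraries, and the log2 fold change was -0.36 (SE 0.19, limma, unadjusted p = 0.0917). With the length correction it was -0.25, and without cKO replicate 1 it was -0.23. The highest cKO library of *Mmp14*, at 154 TPM, was within a few TPM of the lowest control library.

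*Adamts6* and *Adamts10* encode close relatives, as do *Adamts17* and *Adamts19*, and *Adamts6* and *Adamts17* met the criteria in opposite directions. *Adamts10* was 15.3, 22.8 and 10.7 TPM in the control and 12.9, 20.7 and 10.3 TPM in the cKO, with a log2 fold change of -0.14 (SE 0.34, limma, unadjusted p = 0.685). Its spread within each group was larger than the difference between the groups. Of the procollagen N-propeptidases, *Adamts2* had its groups apart, and *Adamts3* and *Adamts14* had log2 fold changes of -0.22 and -0.14 with overlap. *Adamts3* ranged from 2.44 to 7.36 TPM in the control and from 1.68 to 6.76 TPM in the cKO, so that libraries of 1 group differed more than the group means. *Adamts9*, the highest of the proteoglycanases, which cut versican and aggrecan, was 33.0, 39.5 and 20.1 TPM in the control and 18.8, 21.9 and 19.9 TPM in the cKO. Only control replicate 3 reached into the cKO range, and the log2 fold change was -0.54 (SE 0.26, limma, unadjusted p = 0.0738). The value was -0.81 without that library (limma, unadjusted p = 0.00420), -0.34 without control replicate 2 (limma, unadjusted p = 0.219) and -0.24 with the length correction (limma, unadjusted p = 0.109). Exons of *Adamts9* share 1381 and 424 bases with 2 genes on the opposite strand. The other proteoglycanases were low, *Adamts1* at 1.48 to 2.60 TPM and *Adamts4*, *Adamts5*, *Adamts8*, *Adamts15* and *Adamts20* below 1 TPM in the mean, as were *Adamts13*, the von Willebrand factor protease, *Adamts16* and *Adamts18*. Among the COMP-binding pair, *Adamts7* was 0.96 to 1.81 TPM and *Adamts12* 0.35 to 1.71 TPM.

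Apart from *Adamts6*, the log2 fold change of each tested ADAMTS gene was below 0, 8 of 9 in all, with a median of -0.20, against -0.07 over all genes tested. These are long transcripts, and log2 fold changes were lower for longer transcripts over the whole table. Among 12188 protein-coding genes the Spearman correlation between the length of the longest transcript and the log2 fold change was -0.48, a description across genes, which are not independent replicates, and the 4706 genes with a transcript of at least 4000 bases had a median of -0.20. With the length correction, which also removes GC content, the median of the 9 ADAMTS genes was -0.01, and *Adamts7*, *Adamts10* and *Adamts14* were above 0. The part of transcript length or GC content in the lower ADAMTS genes was not tested. For the whole set of 23, the median was -0.08 before and 0.05 after this correction. Among endothelial markers, 2 of 6, *Cdh5* and *Tek*, met the criteria as lower, where 2.47% of all genes tested did. With the length correction their unadjusted p from limma were 0.0624 and 0.0617. The 6 markers had sums of 67.7 to 109 TPM in control libraries and 56.3 to 78.8 TPM in cKO libraries. None of the 6 was at 0, and their part in the lower members was not tested. In bulk RNA, fewer cells of a type and less RNA per cell cannot be told apart.

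**Figure D3:**
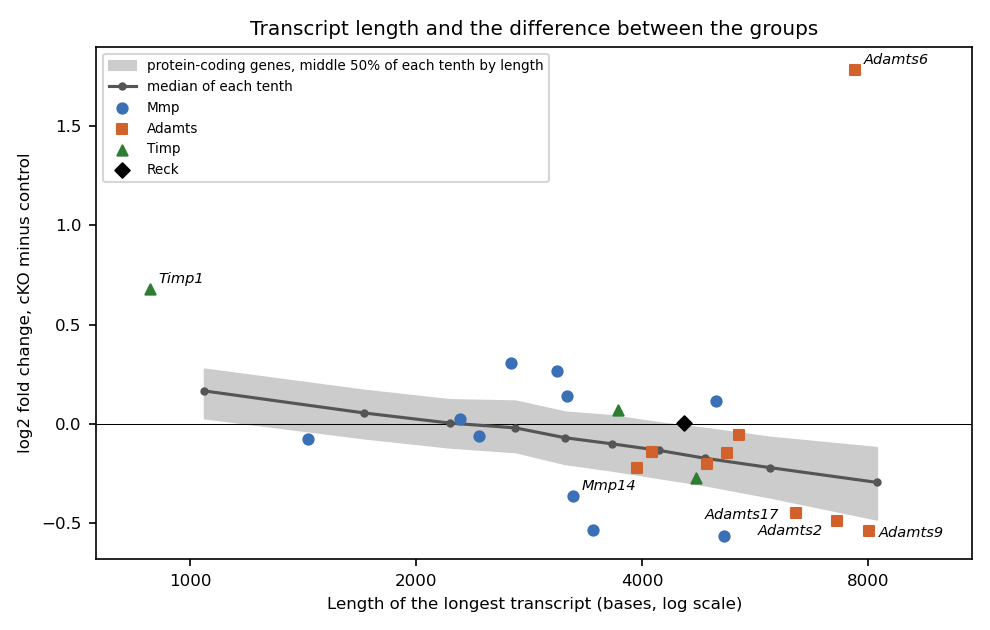
Log2 fold change (cKO minus control) of the 23 tested genes against the length of the longest transcript in bases on a log axis, with the median (line) and the middle 50% (grey band) of 10 equal groups of protein-coding genes. The median runs from 0.17 in the shortest group to -0.30 in the longest. Against the middle 50% of its own length group, 9 genes lie above and 7 below. *Adamts6* and *Timp1* lie far above, and *Mmp2*, *Mmp9*, *Mmp13*, *Mmp16*, *Timp2*, *Reck* and, narrowly, *Adamts7* also lie above. *Mmp14*, *Mmp15*, *Mmp23*, *Mmp28*, *Adamts2*, *Adamts9* and *Adamts17* lie below, *Mmp23* and *Adamts2* narrowly.

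Among the MMP genes no call was made, and 5 of the 10 tested were higher and 5 lower by the sign of the fold change, with a median of -0.02. *Mmp15*, which encodes MT2-MMP, was 13.5, 10.4 and 13.0 TPM in the control and 5.72, 7.08 and 12.2 TPM in the cKO, with cKO replicate 3 inside the control range. The log2 fold change was -0.56 (SE 0.28, limma, unadjusted p = 0.0850). The value was -0.85 without that library (limma, unadjusted p = 0.0104), -0.36 without cKO replicate 1 (limma, unadjusted p = 0.263) and -0.31 with the length correction (limma, unadjusted p = 0.222). *Mmp16*, for MT3-MMP, was 0.25 to 1.75 TPM, and *Mmp17*, *Mmp24* and *Mmp25* were each below 1 TPM in every library, as were *Mmp19* and *Mmp21*, which encode secreted MMPs. *Mmp28*, which encodes epilysin, an MMP of epithelia, was 2.15, 1.67 and 2.86 TPM in the control and 0.89, 1.04 and 1.78 TPM in the cKO, a log2 fold change of -0.53 (95% confidence interval -1.20 to 0.13), and its exons share 466 bases with a gene on the opposite strand. *Mmp11*, for stromelysin 3, a protease of the mesenchyme during remodelling, had the smallest ratio of its highest to its lowest library among the tested members, from 6.94 to 9.0 TPM over the 6 libraries, with a log2 fold change of 0.02 (95% confidence interval -0.44 to 0.49), and its exons share 155 bases with *Chchd10* on the opposite strand. *Mmp23* was 29.0, 21.6 and 24.3 TPM in the control and 20.8, 18.7 and 33.0 TPM in the cKO, and its log2 fold change was -0.08 (SE 0.25, limma, unadjusted p = 0.759).

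**Figure D4:**
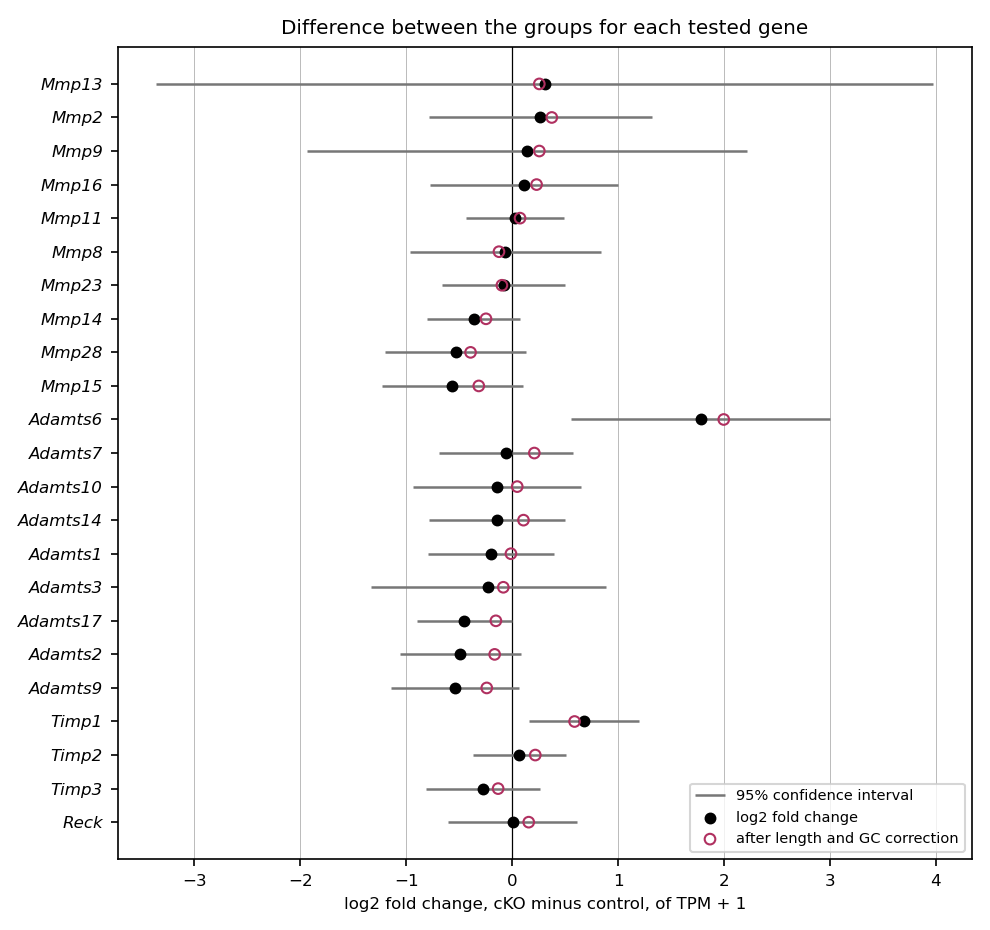
Log2 fold change of TPM + 1 (cKO minus control, black points) with its 95% confidence interval (grey lines) for each tested gene, ordered within families, and the value with the length correction (open circles). Only the intervals of *Adamts6*, *Timp1* and, narrowly, *Adamts17* leave out 0, and those of *Mmp13* and *Mmp9* are the widest.

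The largest spread lay between libraries of the same group. *Mmp13*, which encodes collagenase 3, an enzyme known from bone and cartilage, was 19.9, 10.02 and 0.46 TPM in the control and 9.04 and 62.6 TPM in cKO replicates 1 and 2, and was listed at 0 in cKO replicate 3. *Mmp9*, for gelatinase B, known from osteoclasts and neutrophils, was 23.9, 7.04 and 4.01 TPM in the control and 9.60, 34.0 and 2.63 TPM in the cKO, a range of 12.9 times from the lowest to the highest library. Both genes were highest in cKO replicate 2, next in control replicate 1, and lowest in the replicates 3 of the groups, and *Mmp2* shared the 2 highest libraries. The log2 fold change was 0.31 (95% confidence interval -3.36 to 3.98) for *Mmp13* and 0.14 (-1.94 to 2.22) for *Mmp9*, so that a difference between the groups was not detectable for either. Leaving out 1 library moved the log2 fold change of *Mmp13* between -1.13 without cKO replicate 2 and 1.86 without cKO replicate 3.

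A pair of osteoclast genes was ordered like *Mmp9* across the libraries. *Acp5*, which encodes the tartrate-resistant acid phosphatase of osteoclasts, was 33.5, 15.1 and 11.2 TPM in the control and 15.1, 40.6 and 8.25 TPM in the cKO. *Ctsk*, their collagen-cutting cathepsin, was 41.5, 17.99 and 7.34 TPM in the control and 21.9, 55.0 and 6.27 TPM in the cKO. Both were highest in cKO replicate 2 and in control replicate 1, as *Mmp13* and *Mmp9* were. The 7 macrophage and osteoclast markers together summed to 63.1 to 129 TPM in control libraries and 53.2 to 131 TPM in cKO libraries. The leukocyte gene *Ptprc* was below 1 TPM in every library and none was at 0 in all. The other 5 markers of that list (*Ptprc*, *Csf1r*, *Cd68*, *Lyz2* and *Adgre1*) did not share the full order, and none of them was highest in cKO replicate 2. *Csf1r* did share the 2 highest libraries, at 4.36 TPM in control replicate 1 and 2.17 TPM in cKO replicate 2. Control replicate 1 and cKO replicate 2 were also the 2 highest libraries for 7 of the 12 mesenchymal markers. Among these were *Col3a1*, *Lum* and *Vim*. The same pair was highest for the odontoblast marker *Dmp1*, the epithelial marker *Epcam* (1 of 8) and the endothelial marker *Emcn* (1 of 6). It was also highest for 4 of 11 membrane ADAM genes and 4 of 15 cell surface regulators. Of the 23 tested members, 6 had it (*Adamts1*, *Mmp13*, *Mmp16*, *Mmp2*, *Mmp9* and *Reck*). These counts were made after the values were seen, and the share over all genes tested was not counted. The part of mesenchymal cells, macrophages and osteoclasts in the levels of *Mmp9* and *Mmp13* was not tested. *Mmp8*, the collagenase of neutrophils, was 4.50, 8.49 and 3.17 TPM in the control and 5.18, 6.83 and 2.95 TPM in the cKO. It was high in the replicates 2 of both groups. Among the neutrophil markers, *S100a8* was 7.37, 9.13 and 6.22 TPM in the control and 12.1, 19.7 and 2.79 TPM in the cKO, while *Elane*, *Mpo* and *Ly6g* were below 1 TPM in every library. The 6 neutrophil markers summed to 13.3 to 26.8 TPM in control libraries and 5.98 to 48.2 TPM in cKO libraries, and their part in the level of *Mmp8* was not tested.

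**Figure D5:**
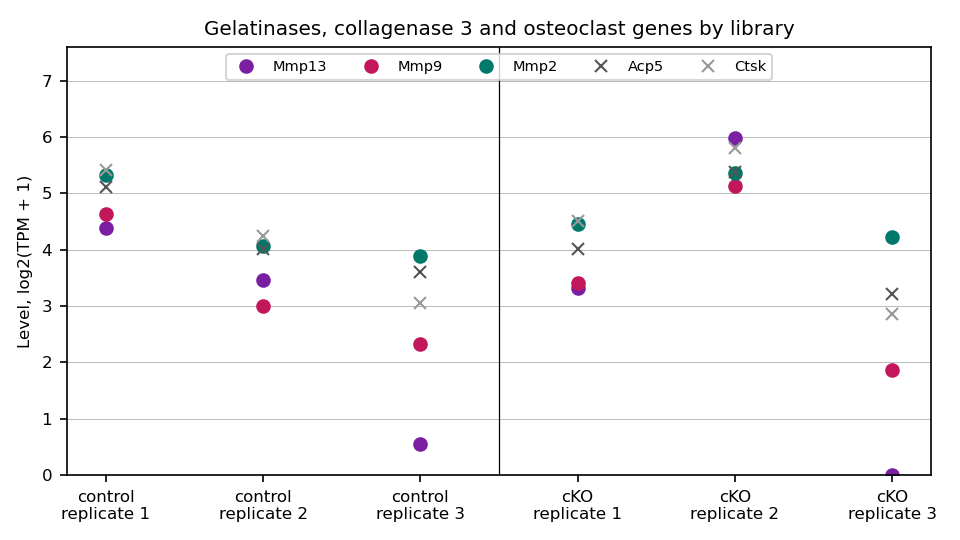
Level of *Mmp13*, *Mmp9* and *Mmp2* (circles) and of the osteoclast genes *Acp5* and *Ctsk* (crosses), as log2(TPM + 1), in each library. Control replicate 1 and cKO replicate 2 are the 2 highest libraries for all 5 genes, and cKO replicate 3 is the lowest for *Mmp13*, *Mmp9*, *Acp5* and *Ctsk*.

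*Mmp13* and *Mmp8* belong to a cluster of MMP genes on chromosome 9 of GRCm38, in which 9 of the members lie within 427 kb, from 7272514 to 7699585. These 2 were tested, and the other 7 (*Mmp12*, *Mmp1b*, *Mmp3*, *Mmp1a*, *Mmp10*, *Mmp27* and *Mmp7*) did not exceed 0.71 TPM in any library, so that neighbours in the cluster had levels far apart. Of the 46 genes, 32 had an entry in a RefSeq table of promoters (GRCm38.p6), and the 250 bases before the annotated start were searched on both strands for TGANTCA, bound by AP-1, TGTGGT, bound by RUNX factors, and CTTTGA or CTTTGT, the core bound by TCF and LEF, the factors of Wnt signaling, and on the forward strand for TATAAA, the TATA box. Hits of different motifs did not overlap in any member's window (0 overlapping pairs). The AP-1 motif was found in 7 of the 9 genes of the cluster and in 0 of the other 23 genes, while 7.82% of the 27025 genes of the table held it in at least 1 window. *Mmp12*, *Mmp7* and *Mmp23* had 2 windows each and were counted when either held a motif, and the AP-1 motif of *Mmp12* was only in the window of its downstream start. The TCF and LEF core was found in 6 of the 9 and in 5 of the 23 genes, with 30.8% of all genes, and the RUNX motif in 4 of the 9 and 2 of the 23, with 15.9% of all genes. TATAAA was found in 6 of the 9 and 2 of the 23, with 8.94% of all genes. A match of letters is a description and says nothing about binding.

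The sequences of 4 of these windows show the contrast between the highest gene of the cluster, *Mmp13*, and its near-silent neighbour *Mmp3*, and the windows of *Mmp14*, the highest member, and *Timp1*, the inhibitor that was higher in the cKO. They run 5′ to 3′ up to the base before the annotated start, all on the forward strand of GRCm38.p6, with the AP-1, RUNX and TCF or LEF motifs in capitals. The window of *Mmp13* is chr9:7272264-7272513, that of *Mmp3* chr9:7445572-7445821, that of *Mmp14* chr14:54431348-54431597 and that of *Timp1* chrX:20869916-20870165.
Mmp13: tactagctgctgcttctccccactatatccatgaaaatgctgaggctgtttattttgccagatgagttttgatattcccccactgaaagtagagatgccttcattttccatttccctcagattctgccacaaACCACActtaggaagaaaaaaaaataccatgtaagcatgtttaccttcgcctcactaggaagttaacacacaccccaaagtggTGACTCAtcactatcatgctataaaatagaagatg
Mmp3: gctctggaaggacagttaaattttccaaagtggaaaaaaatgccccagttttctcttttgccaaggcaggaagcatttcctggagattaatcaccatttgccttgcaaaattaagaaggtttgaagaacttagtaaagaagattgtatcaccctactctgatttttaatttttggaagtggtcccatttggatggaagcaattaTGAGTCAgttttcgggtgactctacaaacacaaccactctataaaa
Mmp14: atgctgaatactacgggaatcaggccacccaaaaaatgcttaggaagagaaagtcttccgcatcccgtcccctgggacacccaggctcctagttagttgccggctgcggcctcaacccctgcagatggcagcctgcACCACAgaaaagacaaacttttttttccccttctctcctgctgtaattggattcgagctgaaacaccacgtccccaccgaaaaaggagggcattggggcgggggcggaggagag
Timp1: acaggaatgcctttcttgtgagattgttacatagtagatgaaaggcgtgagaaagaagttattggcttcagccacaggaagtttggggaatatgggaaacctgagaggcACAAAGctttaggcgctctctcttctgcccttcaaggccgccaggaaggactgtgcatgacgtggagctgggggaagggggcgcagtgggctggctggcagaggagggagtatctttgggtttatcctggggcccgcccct
Positions are counted back from the start, with -1 as the last base of the window. *Mmp13* and *Mmp3* both held an AP-1 motif close to the start, its first base at -35 and -46, and TATAAA between that motif and the start. *Mmp13* also held a RUNX motif on the reverse strand at -118, and *Mmp3* had none. *Mmp14* held a RUNX motif on the reverse strand at -114 and no AP-1 motif. *Timp1* held 1 TCF and LEF core, on the reverse strand at -141. The AP-1 motif was thus present both upstream of *Mmp13*, at up to 62.6 TPM, and upstream of *Mmp3*, at no more than 0.03 TPM.

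Genes that activate or assist these enzymes, and their substrates, were taken from 5 lists. The share of all genes tested that met the criteria was 4.02%, with 1.55% higher and 2.47% lower. Of the 13 convertases and plasminogen system genes, 9 were tested and 0 met the criteria with limma, all with unadjusted p of at least 0.0841, with a median log2 fold change of -0.10. *Furin*, which encodes the convertase that activates the membrane-bound MMPs and the ADAMTS proteases, was 71.1, 63.9 and 70.2 TPM in the control and 37.1, 47.9 and 73.2 TPM in the cKO, with cKO replicate 3 above every control library. Of the 11 membrane ADAM genes, 8 were tested and 0 met the criteria, with unadjusted p of at least 0.113 from limma, and their median was -0.24, or -0.08 with the length correction. Of the 15 cell surface regulators, 13 were tested and 0 met the criteria, with unadjusted p of at least 0.0789 from limma and a median of -0.22, or -0.09 with the length correction. Among the 7 astacin proteases and their enhancers, 4 were tested and 1 met the criteria. This was *Pcolce2*, an enhancer of procollagen C-propeptide removal, at 4.04, 2.79 and 4.51 TPM in the control and 6.17, 10.1 and 5.13 TPM in the cKO, and the log2 fold change was 0.74 (SE 0.29, limma, unadjusted p = 0.0379). *Bmp1*, the C-proteinase itself, ranged over 49.6 to 53.4 TPM in control and 38.2 to 51.8 TPM in cKO libraries, which overlapped.

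Of the 14 ADAMTS-like proteins and hyalectan substrates, 9 were tested and 1 met the criteria, as lower, where 2.47% of all genes tested did. *Papln*, which encodes papilin, an ADAMTS-like matrix protein of basement membranes, was 419, 409 and 355 TPM in the control and 137, 134 and 282 TPM in the cKO. Its groups did not overlap, with cKO replicate 3 nearer to the control than the other cKO libraries, and the log2 fold change was -1.18 (SE 0.29, limma, unadjusted p = 0.00478, adjusted p = 1.00), or -0.98 with the length correction. *Papln* was the highest gene of this list and was above *Mmp14* in every control library. The median of the list was -0.31, against -0.07 over all genes tested, and with the length correction it was -0.13, against 0.0020. *Vcan*, which encodes versican, the main substrate of the proteoglycanases, was 55.4, 67.7 and 25.6 TPM in the control and 27.2, 41.8 and 20.6 TPM in the cKO, and its groups overlapped. *Acan*, for aggrecan, did not exceed 0.26 TPM.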

How the data were processed

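RNA from 3 control and 3 cKO pools of dental epithelium was sequenced. The authors used SeqPrep and Sickle to trim the reads, HISAT2 for alignment and RSEM for abundance, and the submitters' processing notes also name StringTie. The deposited values are TPM per gene and library. The methods name FPKM, but each library sums to between 983952 and 993946. The authors' genome build is not given in the sources used here, and 99.5% of the gene identifiers are in GENCODE M21 (GRCm38), used for positions, lengths and GC content. Nothing states that the pools of a group came from separate litters, so p-values measure the spread between these libraries.

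From the deposited TPM, log2(TPM + 1) was fitted with limma 3.58.1 in R 4.3.3 (lmFit, eBayes with a trend, no block) for the 13719 genes that averaged 1 TPM or more. Adjusted p are Benjamini-Hochberg values over these genes. The fit was also run on simulated libraries with a smaller spread within groups than the real ones. That run does not measure how well changes are found in these libraries. The correction for length and GC content removes, for each library, natural splines of 4 degrees of freedom. By the rule for named genes, full values are given for members that met the study's criteria, had groups apart or were among the 10 highest, and other tested members by value or range. Members and lists were chosen with earlier results of these data known. Alternatives were a pseudocount of 0.1, no filter or a minimum of 5 TPM, quantile and median-ratio scaling, the replicate block, the correction, no trend and leaving out each library. Rescaling without *Amelx* and *Ambn* was added after seeing the data.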

Additional observations from a re-analysis of the deposited data

How the results depend on the processing

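Of 16 alternative settings, 15 were planned and 1, the rescaling without *Amelx* and *Ambn*, was added after seeing the data. The number of members with an adjusted p below 0.05 was 0 in the main fit and in all 16, with adjusted p from limma from 0.378 upwards. The number under the study's criteria was 3. It was 5 with the replicate block (2 higher, 3 lower), where 9.59% of all genes tested were called. With the rescaling, 6 of 26 tested members were called (2 higher, 4 lower), where 6.35% of all genes were called. When 1 library was left out, the number lay between 1 (without control replicate 2, cKO replicate 1 or cKO replicate 2) and 4 (without cKO replicate 3). The share of all genes then ran from 1.42% without cKO replicate 1 to 8.33% without control replicate 3. The cause of these differences was not tested. *Adamts6* kept its call in every fit that tested it. The paper's methods name 3 pairs of biological replicates, without saying which libraries form a pair. Same-numbered libraries deviated from their group means with correlations across genes of -0.08, 0.29 and 0.40. Those of replicates 2 and 3 were above the highest value for differently numbered libraries, 0.18 for cKO replicate 1 with control replicate 2. The main fit did not pair the libraries, and whether same-numbered libraries are pairs was left undecided. With the replicate block, the calls over all genes went from 552 to 1315, and *Adamts9* and *Mmp15* had unadjusted p of 0.0309 and 0.0369 from limma. The calls over all genes were 940 without the filter, 902 with the rescaling, 1110 with the length correction and the block, and from 195 without cKO replicate 1 to 1152 without control replicate 3 when 1 library was left out. Of these calls, 213 were higher and 339 lower in the main fit, 324 and 325 with quantile normalization, 312 and 299 with median-ratio scaling, 334 and 285 with the length correction, and 164 and 738 with the rescaling.

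The sign of the log2 fold change of 10 members did not turn under any setting, and for 13 it turned at least 1 time, in 38 of 359 fits. With the length correction, with or without the block, the values were 0.048 for *Adamts10*, 0.21 for *Adamts7* and 0.11 for *Adamts14*. *Mmp8* was 0.040 with quantile normalization and 0.0043 with median-ratio scaling, and *Mmp13* was -0.33 with a pseudocount of 0.1. With the rescaling, *Mmp11* was -0.046, *Timp2* -0.0073 and *Reck* -0.066. When 1 library was left out, the values ran from -0.41 to 0.12 for *Adamts10*, -0.39 to 0.034 for *Adamts14*, -0.62 to 0.15 for *Adamts3*, -0.20 to 0.059 for *Adamts7*, -0.055 to 0.11 for *Mmp11*, -1.13 to 1.86 for *Mmp13*, -0.20 to 0.29 for *Mmp16*, -0.074 to 0.72 for *Mmp2*, -0.32 to 0.078 for *Mmp23*, -0.33 to 0.27 for *Mmp8*, -0.69 to 0.94 for *Mmp9*, -0.18 to 0.17 for *Reck* and -0.041 to 0.21 for *Timp2*. The depth behind the TPM is unknown, and with 3 libraries in each group no single comparison can reach a permutation p below 0.1.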
